A study of Mus musculus with 2 samples.

Results

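The genes that open the DNA replication programme were followed in single cells of the mouse cornea and limbus, as a list of 36 genes among the 32285 genes in the files. They were chosen by name for their work between late G1 and S phase of the cell cycle: loading and starting the replicative helicase, copying DNA at the fork, supplying nucleotides and histones, and controlling entry into S phase. All 36 had UMIs (unique molecular identifiers, each standing for 1 captured RNA molecule) in both libraries. The study compared a wild-type library with a library labelled Pax6 +/-, and Pax6 encodes a transcription factor that the corneal epithelium needs throughout life. Its design names 2 mice per genotype but the data used here are 1 library for each, and neither pooling of animals nor their sex, age, strain or Pax6 allele is given in the labels. The tissue was the anterior eye without lens, retina, iris and trabecular meshwork and with most conjunctiva dissected away, dissociated with liberase and then trypsin. No test can be made between single libraries, so "higher" and "lower" refer to these 2 libraries, and the intervals account for counting error alone.

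Before S phase, Cdc6 and Cdt1 help to load the ring of Mcm2 to Mcm7 onto origins, and Cdc45 and the GINS complex later turn that ring into a moving helicase. Cyclin D with its kinase and then cyclin E release E2F transcription factors from the retinoblastoma proteins, and E2F in turn drives many genes of this list. In the cornea, cells divide in the basal layer of the limbus and of the central epithelium and stop dividing as they move towards the surface. Krt14 marks basal cells, Krt12 the corneal type, Gpha2 a limbal stem or progenitor state, and Krt4 cells of conjunctival or superficial type.

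Pax6 itself was higher in epithelial cells of the library labelled Pax6 +/-, at 743 CPM (UMIs per 1000000 UMIs of the cell class, mitochondrial genes left out) against 372 CPM in wild type, so this RNA does not show the reduced dose the label names, and what the allele does to the RNA is not known. Cells were kept at 500 or more genes, 1000 or more UMIs and at most 20% mitochondrial UMIs, which left 10154 wild-type and 9542 Pax6 +/- cells with medians of 10218.5 and 12537 UMIs. Epithelial cells were those with 30 or more UMIs of Krt5, Krt14 and Krt15 per 10000, and 8552 and 6796 passed. Of these, 1676 and 353 lay between 20 and 45 per 10000, near that limit. Krt5, Epcam, Cdh1 and Trp63 were all present, but the epithelia differed in kind: Krt12 stood at 29618 CPM in wild type and 1769 CPM in the library labelled Pax6 +/-, and Krt14 at 954 and 4880 CPM. The libraries also differed in sex. Wild-type epithelium held 8156 cells that had Xist but lacked Y-linked UMIs (Xist-only) and 0 of the reverse kind (Y-only), and the other library held 3376 and 2485. Among kept cells, 33 barcodes occurred in both libraries.

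Short promoter sequences show motifs that several of these genes share. The genes were chosen by name and not by sequence, but many are known to be driven by E2F. E2F-type motifs are therefore not independent of that choice. RefSeq windows from 250 bases before to 50 bases after the gene start (GRCm38.p6) were found for 29 of the 36 genes. Both strands were searched for 4 E2F-type motifs of 8 letters that can overlap one another: TTTCCCGC, TTTGGCGC, TTTCGCGC and TTTGCCGC. At least 1 was present in 10 of the 29 genes (34.48%), namely Cdc6, Cdt1, Lig1, Mcm3, Mcm5, Mcm6, Mcm7, Pclaf, Pola1 and Uhrf1, and in 2.605% of all 27025 genes with windows. The CCAAT box was found in 18 of 29 (62.07%) against 41.06%. Of the windows printed here, 3 hold a motif, shown in capitals, and the fourth belongs to Ung, the gene that differed most between the libraries, and holds none of the 4. A match is a description of letters, not of binding.
Mcm5, chr8:75109259-75109558, plus strand: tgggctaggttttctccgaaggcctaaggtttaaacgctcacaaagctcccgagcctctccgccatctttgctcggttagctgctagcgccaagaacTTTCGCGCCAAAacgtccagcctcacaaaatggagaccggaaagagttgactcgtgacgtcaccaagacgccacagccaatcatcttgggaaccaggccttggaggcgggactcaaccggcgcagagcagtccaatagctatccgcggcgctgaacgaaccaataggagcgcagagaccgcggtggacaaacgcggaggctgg
Mcm6, chr1:128359656-128359955, minus strand: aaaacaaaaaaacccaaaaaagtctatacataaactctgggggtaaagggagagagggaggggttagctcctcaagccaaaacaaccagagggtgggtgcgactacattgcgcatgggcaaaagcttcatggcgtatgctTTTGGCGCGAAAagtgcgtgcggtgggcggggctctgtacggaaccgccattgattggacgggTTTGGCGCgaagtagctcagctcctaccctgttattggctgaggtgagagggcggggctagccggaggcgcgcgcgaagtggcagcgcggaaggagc
Pclaf, chr9:65890073-65890372, plus strand: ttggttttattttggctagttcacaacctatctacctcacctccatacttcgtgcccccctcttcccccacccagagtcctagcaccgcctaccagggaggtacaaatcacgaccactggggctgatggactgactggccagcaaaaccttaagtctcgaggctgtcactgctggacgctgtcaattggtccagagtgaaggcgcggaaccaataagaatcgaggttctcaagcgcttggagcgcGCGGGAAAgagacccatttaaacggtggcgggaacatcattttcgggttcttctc
Ung, chr5:114130185-114130484, plus strand: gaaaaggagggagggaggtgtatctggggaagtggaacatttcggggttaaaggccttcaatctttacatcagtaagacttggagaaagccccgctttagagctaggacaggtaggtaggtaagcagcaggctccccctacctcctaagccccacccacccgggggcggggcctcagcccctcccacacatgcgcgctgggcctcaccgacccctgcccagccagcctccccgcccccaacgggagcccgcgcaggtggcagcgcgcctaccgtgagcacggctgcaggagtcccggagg
In Mcm5 the motif on the gene's strand and the one on the other strand overlap, starting at position -153 and -149 from the RefSeq start. Mcm6 has such an overlapping pair at -110 and -106 and a further single motif at -47, and the Pclaf motif lies on the other strand at -5.

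The replication genes were higher in the epithelium of the library labelled Pax6 +/- across every step of the programme. UMIs were summed over epithelial cells, and 34 of the 36 genes reached 10 CPM in either library (Mcm10 and Cdc6 did not). Of these 34, 28 were at least 2-fold higher in the library labelled Pax6 +/- and 0 at least 2-fold lower, where 14.9% and 6.35% of all 9121 genes at that level were. All 36 ratios were above 1, from 1.21 for Ccne1 to 15.3 for Ung. The median log2 ratio of the 34 genes was 1.29, and the log2 of the median ratio of all genes was 0.20. Rescaling by edgeR's TMM or DESeq2's size factors left 15 of 32 genes at least 2-fold higher, with 9.32% and 9.1% of all genes, at medians of 0.96 and 0.94 where all genes stood at -0.15 and -0.17, and put Ccne1 below 1. With cells of no class added, 26 of 34 genes were higher and 0 lower (14.7% and 6.3% of all genes).

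**Figure D1:**
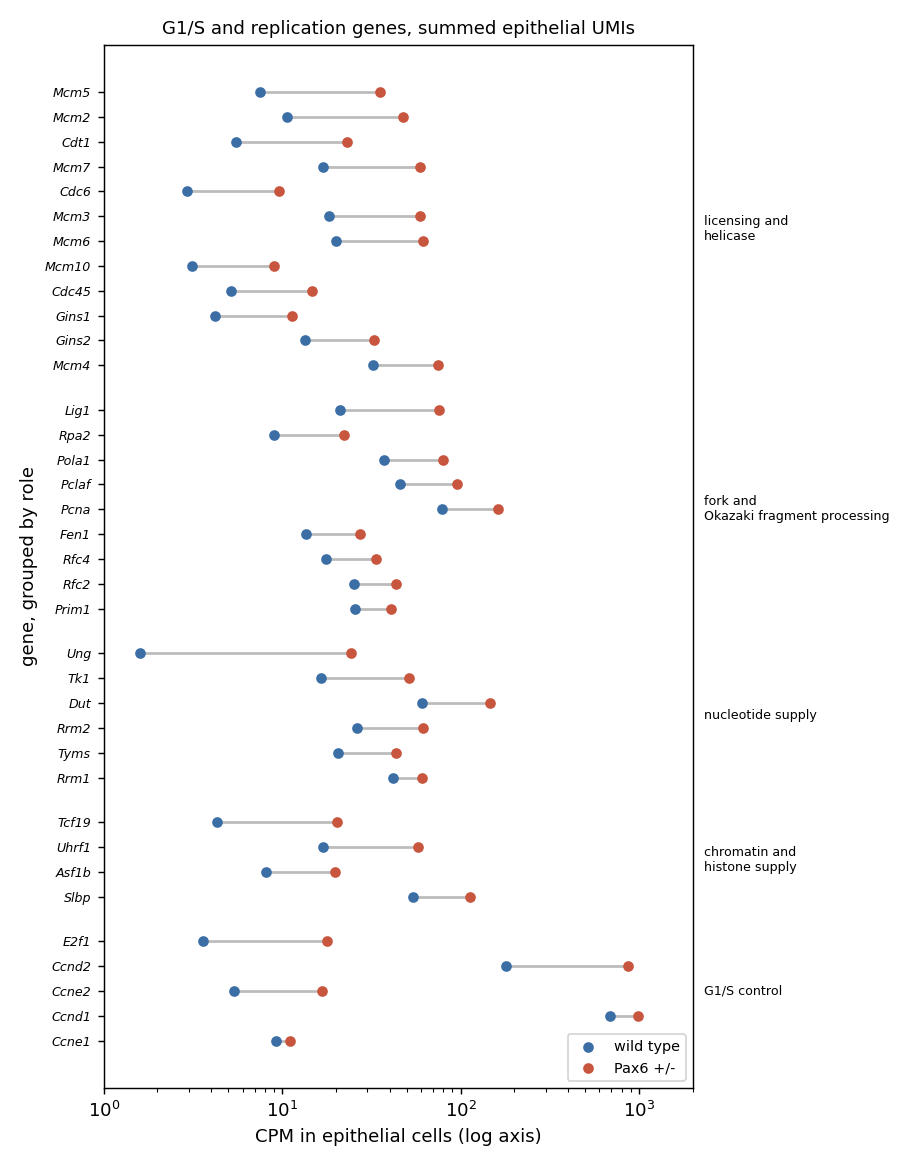
Each of the 36 genes is a line of the plot, with its level in epithelial cells in CPM on the horizontal log axis and wild type and Pax6 +/- as separate points grouped by role. Every Pax6 +/- point lies to the right of its wild-type partner, with the widest gap at Ung (1.59 and 24.4 CPM) and the narrowest at Ccne1 (9.19 and 11.1 CPM).

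Licensing and helicase genes were higher throughout: all 10 at 10 CPM or more differed at least 2-fold, with a median log2 ratio of 1.66, and 7 of 9 with TMM or DESeq2 scaling. Mcm5, a subunit of the Mcm2 to Mcm7 ring (ENSMUSG00000005410, GRCm38 chromosome 8, 75109569 to 75128439, plus strand), was 4.66-fold higher, with 7.55 CPM in wild type and 35.2 CPM in Pax6 +/- (95% interval of the ratio 4.32 to 5.03). Mcm2, a neighbouring subunit, was 4.43-fold higher (4.16 to 4.73), from 10.7 to 47.3 CPM. The other subunits differed less, at 3.25 for Mcm3, 2.30 for Mcm4, 3.09 for Mcm6 and 3.49 for Mcm7. The 6 subunit genes of the ring thus had ratios from 2.30 to 4.66. Cdt1, the loader that is degraded once S phase begins, was 4.18-fold higher (3.82 to 4.58), from 5.51 to 23.0 CPM. Cdc45 (5.19 and 14.7 CPM), Gins1 (4.21 and 11.4 CPM) and Gins2 (13.5 and 32.7 CPM), the activators of the ring, had ratios of 2.84, 2.71 and 2.43. The genes below the 10 CPM limit followed, with Mcm10, which helps the helicase to start, at 3.12 and 8.98 CPM and Cdc6, a loader, at 2.95 and 9.64 CPM.

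Fork genes were higher by smaller factors, at a median log2 ratio of 1.03, and 6 of 9 were at least 2-fold higher, of which Lig1 alone was left with TMM or DESeq2 scaling. Pcna, the sliding clamp of the DNA polymerases (ENSMUSG00000027342, chromosome 2, 132249162 to 132253314, minus strand), was 2.04-fold higher (1.99 to 2.10), at 78.8 and 161 CPM. Pclaf, a partner of the clamp (ENSMUSG00000040204, chromosome 9, 65890237 to 65903266, plus strand), was 2.10-fold higher, at 45.8 and 95.9 CPM. These ratios sit just inside the 2-fold limit, as does that of Fen1, the flap nuclease of Okazaki fragments, at 2.02. Lig1, the ligase that seals those fragments, differed most in the group, at 21.1 and 75.3 CPM (3.57-fold, 3.40 to 3.74). Pola1, the catalytic subunit of the polymerase that extends primers, was 2.14-fold higher and Rpa2, which coats single strands, 2.47-fold. Primase Prim1 (1.59-fold) and the clamp loader subunits Rfc2 (1.72-fold) and Rfc4 (1.90-fold) stayed under the limit.

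The nucleotide supply group was made to include Ung, which acts on uracil in DNA and supplies no nucleotide. In this group 5 of 6 genes were at least 2-fold higher, and 1 stood far apart. With TMM or DESeq2 scaling 2 of 6 were, Ung and, among the supply genes proper, Tk1 alone. Ung, the uracil-DNA glycosylase that removes uracil from DNA (ENSMUSG00000029591, chromosome 5, 114130386 to 114139323, plus strand), had 177 UMIs in wild-type and 2524 UMIs in Pax6 +/- epithelium. That is 1.59 and 24.4 CPM, a ratio of 15.3 (13.2 to 18.0). The next ratio in the group was 3.08 for Tk1, the salvage kinase for thymidine, at 16.6 and 51.1 CPM. Dut, which removes dUTP and so keeps uracil out of new DNA, stood at 60.9 and 147 CPM (2.41-fold), and Tyms, the enzyme that makes thymidylate, at 20.6 and 43.5 CPM (2.11-fold). The ribonucleotide reductase subunits parted: Rrm2, the subunit that follows S phase, was 2.36-fold higher and Rrm1, the large subunit, 1.46-fold (41.7 and 60.8 CPM).

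Among chromatin and histone supply genes all 4 were at least 2-fold higher, and 2 of them, Tcf19 and Uhrf1, with TMM or DESeq2 scaling. Tcf19, a chromatin reader expressed at the start of S phase, stood at 4.30 and 20.3 CPM (4.73-fold, 4.28 to 5.24). Uhrf1, which brings the maintenance methyltransferase to new DNA, stood at 17.0 and 57.5 CPM (3.38-fold). Asf1b, a histone chaperone, was 2.43-fold higher, and Slbp, which binds the stem-loop of replication-dependent histone mRNAs, 2.07-fold.

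The G1/S control genes ranged from near 1 to near 5. E2f1, the activating transcription factor of the programme, stood at 3.59 and 17.9 CPM, 4.98-fold higher (4.47 to 5.56). Its target Ccne2, a cyclin E, was 3.12-fold higher, while the other cyclin E gene, Ccne1, was 1.21-fold higher (1.11 to 1.32). Ccnd2, a cyclin D (ENSMUSG00000000184, chromosome 6, 127125162 to 127152193, minus strand), stood at 179 and 864 CPM, 4.82-fold higher (4.74 to 4.89). The second cyclin D gene, Ccnd1, stood at 690 and 990 CPM, 1.43-fold higher. Over the whole epithelium the cyclin D and the cyclin E pair therefore each held 1 gene over 3-fold and 1 gene under 1.5-fold. This split depended on the cells taken. In cells low in Krt12 (under 20 per 10000), Ccnd2 was 1.95-fold and Ccnd1 1.65-fold higher, and Ccne2 2.304-fold and Ccne1 1.26-fold. In cells high in Krt4 (5 or more per 10000), Ccnd2 was 3.59-fold and Ccnd1 2.95-fold higher. In cells low in Gpha2 (under 5 per 10000) the split held. Ratios there were 4.34 for Ccnd2, 1.46 for Ccnd1, 3.21 for Ccne2 and 1.23 for Ccne1.

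The higher level came with more cells that carried many replication UMIs. Each epithelial cell was thinned to 3000 UMIs, which left out 845 wild-type and 485 Pax6 +/- cells with fewer, and the UMIs of 34 genes were added (Ccnd1 and Ccnd2, which are abundant outside S phase, were not). Cells with 5 or more, called replication-high, were 9.30% of wild-type cells (717 of 7707, exact binomial interval 8.66 to 9.97%) and 32.0% of Pax6 +/- cells (2021 of 6311, 30.9 to 33.2%). Without thinning the shares were 40.1% and 69.4%. The sum is a range, not a cell type: 217 and 354 cells had exactly 4 UMIs and 119 and 267 exactly 5. The whole distribution was moved, since 36.1% of wild-type and 19.2% of Pax6 +/- cells had no UMI of the 34 genes, and 3.45% and 12.5% had 12 or more. The mean sum was 1.95 and 4.60 UMIs.

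**Figure D2:**
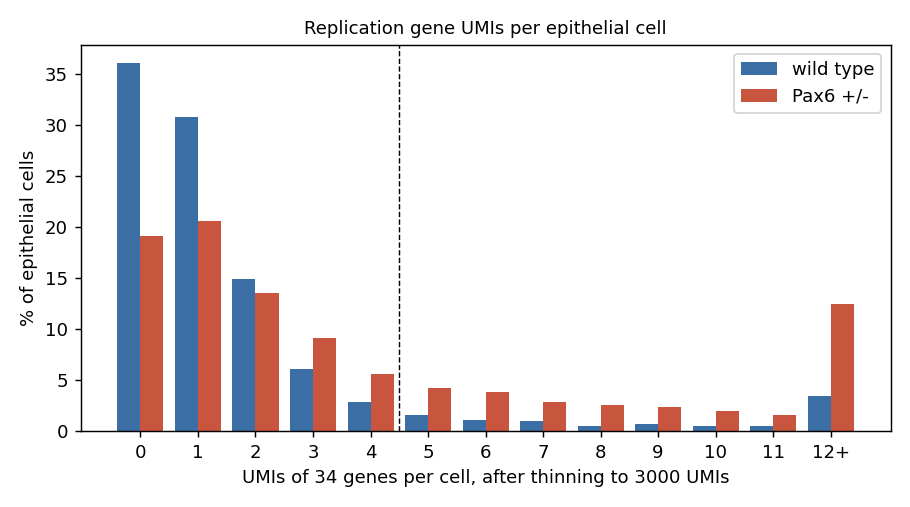
Bars give the percentage of epithelial cells at each summed UMI count of 34 replication genes after thinning to 3000 UMIs, for wild type and Pax6 +/-, and the dashed line marks the limit of 5 UMIs. Wild-type bars are taller at 0 to 2 UMIs, and Pax6 +/- bars are taller from 3 UMIs on.

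Replication-high cells of the 2 libraries were then compared gene by gene. For each gene, cells were taken with 5 or more UMIs of the other genes, so that the gene did not select its own cells. Choosing cells by the same summed level at the same depth itself holds the ratios near 1, so what these values describe is the make-up of the sum and not its size. In cells so chosen, 10 of 36 intervals lay above a ratio of 1, 3 below it and 23 across it, with a median ratio of 1.09. Pcna had 0.878 UMIs per 3000 in wild-type and 0.946 in Pax6 +/- replication-high cells, a ratio of 1.08 (0.980 to 1.18), and Uhrf1 a ratio of 0.968 (0.848 to 1.11). Only Ung and Ccnd2 were at least 2-fold higher in such cells as well. Ung had 0.0406 and 0.179 UMIs per 3000 (4.41-fold, 3.02 to 6.68), and Ccnd2 0.794 and 3.17 (4.0-fold, 3.67 to 4.37). E2f1 (1.72), Mcm5 (1.69), Cdt1 (1.65), Tcf19 (1.58), Mcm2 (1.44), Ccnd1 (1.39), Mcm6 (1.32) and Lig1 (1.17) made up the rest of the 10. Genes on the other side were Pclaf, at 0.984 and 0.642 UMIs per 3000 (0.653-fold, 0.594 to 0.718), Rrm1 (0.608-fold) and Rrm2 (0.813-fold). Pclaf and both reductase subunits, higher over the whole epithelium, thus took a smaller part of the sum in the Pax6 +/- cells so chosen.

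**Figure D3:**
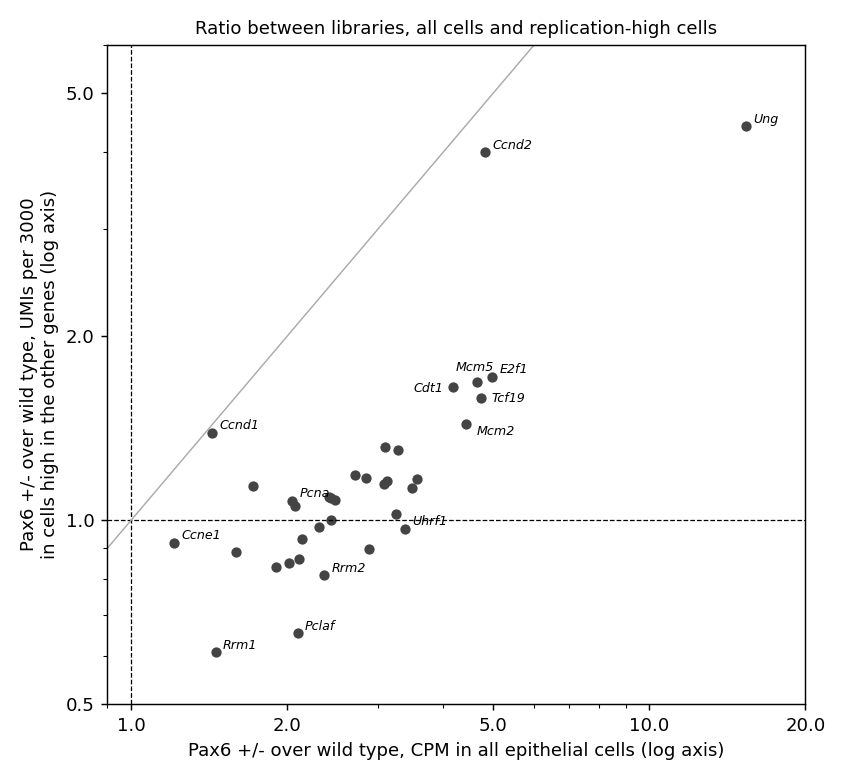
Each point is a gene, with the Pax6 +/- over wild-type ratio of CPM in all epithelial cells on the horizontal log axis and the ratio of UMIs per 3000 in cells high in the other genes on the vertical log axis, and the grey line marks equal ratios. Ccnd2 and Ccnd1, which are left out of the sum that chose the cells, lie near that line, at 4.82 and 4.0 and at 1.43 and 1.39. The points for most other genes, which are in the sum, lie near 1 on the vertical axis.

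By the share of cells with a UMI, the cyclin D genes differed least between cells high in the other genes and cells with none. Such a share has little room to rise for an abundant gene. Mean Ccnd1 per 3000 UMIs went from 1.99 to 2.97 in wild type and from 2.00 to 4.14 in Pax6 +/-. Mean Ccnd2 went from 0.519 to 0.794 and from 2.28 to 3.17, and mean Slbp from 0.120 to 0.495 and from 0.209 to 0.522. The share of cells with a Ccnd1 UMI was 1.29-fold higher in wild-type cells high in the other genes than in cells with none, and 1.30-fold in Pax6 +/-, and for Ccnd2 1.45-fold and 1.30-fold, where the next gene, Slbp, had 3.29-fold and 2.10-fold. In the cells with none, Ccnd2 had 0.519 UMIs per 3000 in wild type and 2.28 in Pax6 +/- (4.40-fold), and Ccnd1 1.99 and 2.00 (1.00-fold). Ccnd2 was thus higher in Pax6 +/- in cells with and without replication UMIs, whereas the Ccnd1 ratio was 1.00 here and 1.39 in replication-high cells. In CPM, which is summed over all UMIs of the cells and so gives deeper cells more weight than the thinned mean, Ccnd1 went from 562 CPM at 0 UMIs to 981 CPM at 10 or more in wild type and from 641 to 1475 CPM in Pax6 +/-, so the ratio at 0 UMIs was not the same on both scales.

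How closely each gene followed the others from cell to cell was similar in both libraries. Pearson's r was taken between the log-transformed UMIs of a gene and those of the sum of the others. It was computed over 7707 wild-type and 6311 Pax6 +/- cells that share a library and a depth of 3000 UMIs. All 36 genes had r above 0, from 0.0869 to 0.455 in wild type and from 0.130 to 0.482 in Pax6 +/-. Pclaf (0.455 and 0.446), Uhrf1 (0.403 and 0.425) and Dut (0.371 and 0.482) were among the closest. Ccne1 (0.0869) and Ccnd2 (0.0924) were the loosest in wild type, and Ccnd2 (0.130) in Pax6 +/-. Low r is also what few UMIs give, and Ccne1 and Ung are sparse. Detection separated the cells more plainly: Mcm5 had a UMI in 11.8% of wild-type cells high in the other genes and in 0.0719% of cells with none, and in 19.2% and 0.820% of Pax6 +/- cells.

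Among genes outside the list, those whose UMIs followed the summed level most closely were taken from the whole table. Among 8618 genes ranked in each library, 6 were in both top 10 lists: the tubulin Tubb5 (r of 0.464 in wild type and 0.525 in Pax6 +/-), the microtubule regulator Stmn1 (0.461 and 0.564), topoisomerase Top2a (0.454 and 0.445), the chromatin protein Hmgb2 (0.384 and 0.430), the condensin subunit Smc2 (0.379 and 0.429) and the formin Diaph3 (0.361 and 0.420). The 4 that completed the wild-type list were the histone gene Hist1h1b (0.421 and 0.305), the mitotic kinase Cdk1 (0.362 and 0.303), the proliferation marker Mki67 (0.361 and 0.302) and Anln (0.349 and 0.281). In Pax6 +/- they were Ptma (0.342 and 0.470), the histone variant H2afz (0.280 and 0.449), the chromatin remodeller Hells (0.349 and 0.428) and Dek (0.295 and 0.395).

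Over all epithelial cells, genes of the later cell cycle did not show the difference seen in the replication genes. Of 22 mitotic genes, 21 reached 10 CPM and 0 were at least 2-fold higher in Pax6 +/-, while 4 were at least 2-fold lower, where 6.35% of all genes were. The 4 were Ube2c (107 and 46.8 CPM), Cenpf (86.2 and 38.3 CPM), Kif23 (53.1 and 24.2 CPM) and Plk1 (13.7 and 6.35 CPM). Other mitotic genes went the other way, since 7 of the 21 ratios were above 1, the highest at 1.47. The median log2 ratio of the 21 was -0.32, where all genes stood at 0.20. With TMM or DESeq2 scaling 6 of 21 were lower, where 10.8% and 11.2% of all genes were. The result depended on the cells taken, here against wild type, which had 0 Y-only cells. The Xist-only Pax6 +/- cells had 0 of 21 mitotic genes 2-fold lower (5.53% of all genes) and 11 ratios above 1. Their median was 0.07, where all genes stood at 0.24. The Y-only cells had 10 of 20 lower (7.5% of all genes), at a median of -0.98, where all genes stood at 0.17. In Krt12-low cells 0 of 19 were lower (median 0.38, all genes at 0.13), and in Krt12-high cells 10 of 21 (median -0.93, all genes at 0.05). Among 16 genes in Krt4-high cells 3 were higher and 1 lower by 2-fold, and the median of 0.44 was close to the 0.40 of all genes. Summed over the list, the level was 894 CPM in wild type and 705 CPM in Pax6 +/-, whereas the 34 replication genes summed to 684 and 1662 CPM. Thinned cells with 5 or more mitotic UMIs were 9.71% and 9.17%.

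In the same cells, the share that was also mitotic-high differed between the libraries at each replication level. Of replication-high cells, 46.2% in wild type (42.5 to 49.9%) and 22.2% in Pax6 +/- (20.4 to 24.1%) had 5 or more mitotic UMIs. At 5 to 9 replication UMIs these were 39.9% and 10.0%, and at 10 or more 53.1% and 34.3%. Replication-high cells with Krt14 at 20 or more per 10000 gave 52.8% and 22.6%. Among the Pax6 +/- replication-high cells, 27.2% of the Xist-only and 15.5% of the Y-only cells were mitotic-high, and the Xist-only share of wild type was 46.2%. Median depth before thinning was 15401 and 17056 UMIs in replication-high cells of the libraries, and its part in these shares was not tested.

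**Figure D4:**
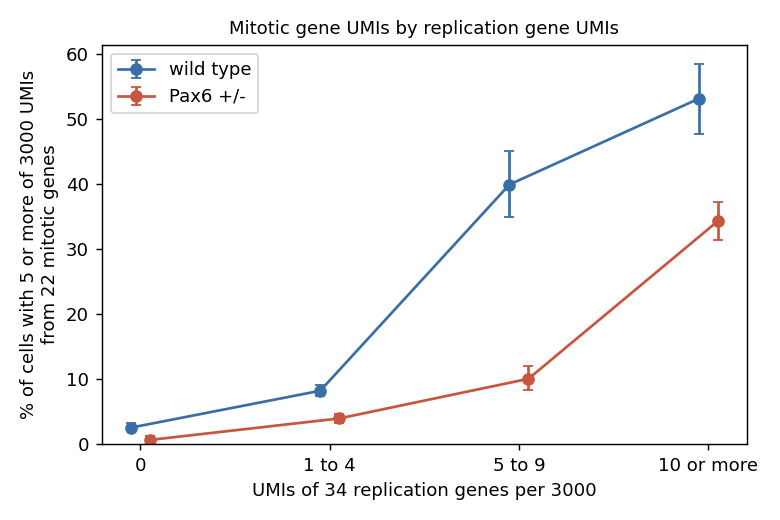
The percentage of epithelial cells with 5 or more mitotic UMIs is plotted by bin of summed replication UMIs, both after thinning to 3000 UMIs, with exact 95% binomial intervals as bars. In both libraries the share climbs from the lowest bin (2.55% and 0.662%) to the highest (53.1% and 34.3%), and the wild-type value is above the Pax6 +/- value in each bin.

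Basal cells carried more replication transcripts in both libraries. From the lowest to the highest quartile of Krt14 per 10000 UMIs in wild type, replication-high cells went from 3.80% through 7.13% and 11.9% to 14.8%, and in Pax6 +/- from 21.3% through 33.2% and 35.5% to 37.6%. In wild type 21 of 26 genes were at least 2-fold higher in the highest quartile than in the lowest, where 8.58% of all genes were, led by Pclaf (14.4 and 80.2 CPM) and Tk1 (5.38 and 29.0 CPM), and 0 were lower (7.11%). In Pax6 +/- 18 of 36 were, against 7.43% of all genes, led by Ccnd2 (334 and 1118 CPM) and Tk1 (25.4 and 64.9 CPM), and again 0 were lower (7.21%). Krt14 is part of the epithelial gate, and the quartiles span unlike ranges, with upper limits of the first 3 at 0, 2.40 and 12.9 per 10000 in wild type and 16.9, 44.7 and 68.6 in Pax6 +/-.

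Over equal ranges of Krt14, chosen after seeing the data, a smaller part of the genes was at least 2-fold higher in each range than in the whole epithelium (28 of 34). Below 5 per 10000, 5 of 24 genes were at least 2-fold higher in Pax6 +/- (11.1% of all genes), with replication-high shares of 6.13% and 14.4%. From 5 to 20, 15 of 34 were (12.7%), with shares of 12.5% and 31.2%, and from 20 to 40, 13 of 36 (18.3%), with 17.5% and 35.0%. At 40 and above, where wild type had 462 cells, 22 of 35 were (13.9%), with 11.8% and 35.9%. The median log2 ratios were 0.47, 0.79, 0.73 and 1.29 in these ranges, over different numbers of genes. The last equals that of the whole epithelium, but single genes moved. Ccnd2 was 2.78-fold higher at 40 and above and 4.82-fold in the whole epithelium, and Ccne1 2.45-fold and 1.21-fold. All 4 medians were above those of all genes (0.07, 0.17, 0.29 and 0.24). Mitotic genes at least 2-fold lower numbered 7 of 16, 16 of 22, 16 of 22 and 7 of 22 in these ranges, with 7.62%, 6.05%, 5.67% and 5.35% of all genes.

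**Figure D5:**
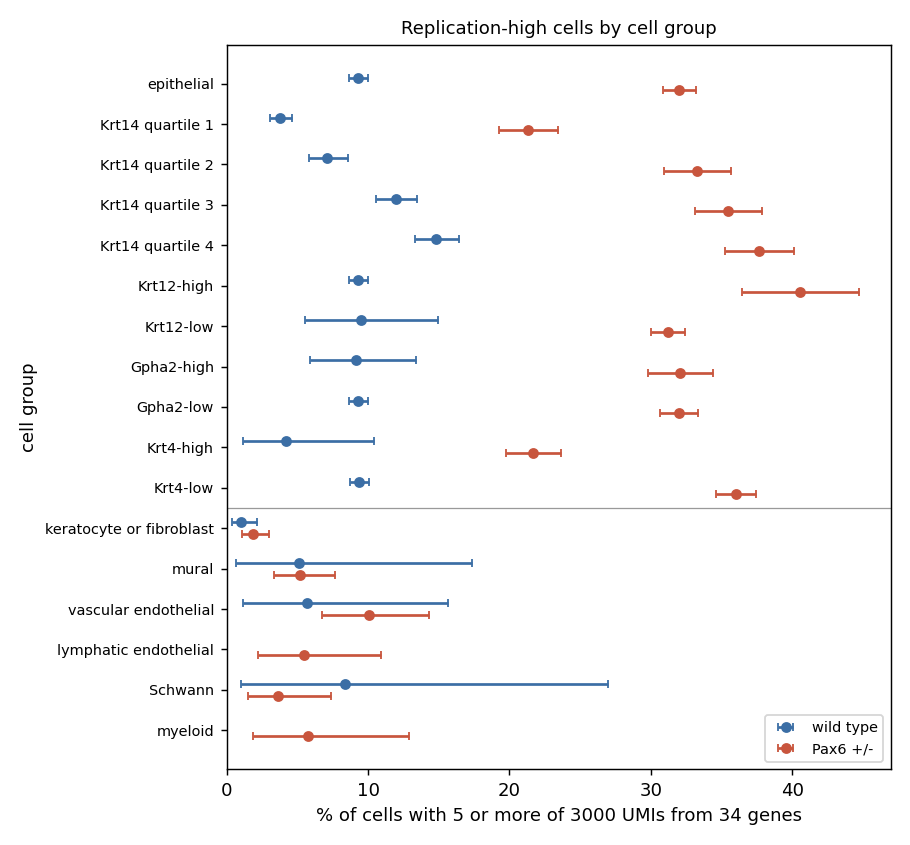
The percentage of replication-high cells (horizontal axis) is shown for epithelial cells split by Krt12, Krt14, Gpha2 and Krt4 and for other cell types, by library, with exact 95% binomial intervals as bars. Pax6 +/- points lie to the right of wild type in every epithelial split (for example 40.5% and 9.30% in Krt12-high cells), and keratocytes are the lowest in both (0.993% and 1.88%).

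Between Krt12-high and Krt12-low cells the replication genes differed by less than 2-fold within the library labelled Pax6 +/-, and were higher in the Krt12-high cells. In Krt12-high cells (20 or more per 10000), which were nearly all of wild type and few of Pax6 +/-, replication-high cells were 9.30% (of 7538) in wild type and 40.5% (of 560) in Pax6 +/-. In Krt12-low cells they were 9.47% (of 169) and 31.2% (of 5751). Between libraries, 32 of 36 genes were at least 2-fold higher in Krt12-high cells (9.92% of all genes) and 23 of 34 in Krt12-low cells (7.44%). E2f1 in Krt12-high cells stood at 3.58 and 21.5 CPM (6.02-fold, 5.08 to 7.13) and Mcm5 at 7.55 and 45.6 CPM (6.04-fold). Within Pax6 +/-, 0 of 36 genes differed 2-fold in either direction between Krt12-low and Krt12-high cells, where 5.28% of all genes were higher and 3.11% lower. Their median log2 ratio was -0.27, with 5 of 36 ratios above 1, where all genes stood at 0.15, and the 34 genes summed to 1977 CPM in Krt12-high and 1627 CPM in Krt12-low cells. Ccnd1, at 1489 CPM in Krt12-high and 935 CPM in Krt12-low cells, had the lowest ratio, 0.628. In wild type Ccnd2 was the 1 gene at least 2-fold higher in Krt12-low cells (174 and 454 CPM), with 9.55% of all genes, and Rfc4 the 1 gene lower (17.8 and 8.15 CPM), with 4.86%.

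Limbal-type cells with Gpha2 at 5 or more per 10000 had almost the same share of replication-high cells as those without, but higher summed levels. The shares were 9.13% and 9.31% in wild type and 32.1% and 32.0% in Pax6 +/-. Only Ccnd2 separated them by 2-fold in wild type, at 576 CPM in Gpha2-high and 169 CPM in Gpha2-low cells, 1 of 25 genes with 8.77% of all genes. In Pax6 +/- none of 34 did (2.89% of all genes were higher and 4.64% lower), and Ccnd2 stood at 1330 and 733 CPM, 1.81-fold apart. The 34 summed genes stood at 849 CPM in Gpha2-high and 680 CPM in Gpha2-low cells of wild type, and at 1776 and 1629 CPM in Pax6 +/-. In wild type 23 of 25 ratios were above 1 (median log2 0.38, all genes at 0.12). In Pax6 +/- 26 of 34 were (0.12, all genes at 0.10). In Gpha2-high cells, 19 of 34 genes were at least 2-fold higher in Pax6 +/- and 0 lower (8.31% and 4.68% of all genes), with Mcm2 at 13.8 and 51.7 CPM, whereas Ccnd1 stood at 917 and 968 CPM. In Gpha2-low cells 27 of 34 were higher and 0 lower (14.1% and 6.1%).

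Krt4-high cells (5 or more per 10000) had fewer replication transcripts than Krt4-low cells in both libraries. Replication-high shares were 4.21% of 95 and 9.37% of 7612 cells in wild type, with intervals of 1.16 to 10.4% and 8.72 to 10.0%, and 21.7% of 1750 and 36% of 4561 cells in Pax6 +/-. At least 2-fold lower in Krt4-high cells were 14 of 24 genes in wild type, where 17.2% of all genes were, and 2 of 36 in Pax6 +/-, where 9.91% were: Ccnd2 (1125 and 400 CPM) and Pola1 (97.8 and 46.6 CPM). None was 2-fold higher in Krt4-high cells of Pax6 +/- (6.55% of all genes). The median log2 ratios of Krt4-high over Krt4-low cells were -1.06 in wild type and -0.76 in Pax6 +/-. All genes stood at -0.29 and -0.16. Between libraries, 29 of 33 genes were higher and 0 lower in Krt4-high cells of Pax6 +/- (21.1% and 4.48% of all genes), and 31 of 36 and 0 in Krt4-low cells (17.3% and 7.92%). Among Krt12-low cells of Pax6 +/-, the share was 31.0% in Gpha2-high Krt4-low cells, 19.9% in Krt4-high Gpha2-low cells and 37.9% in cells with neither. Against the Gpha2-high Krt4-low cells, 5 of 34 genes were at least 2-fold lower in the Krt4-high Gpha2-low cells and 0 higher, with Ccnd2 at 1364 and 375 CPM. The lower count was near the share of all genes (12.9% lower and 8.65% higher). The median log2 ratio was -0.63, where all genes stood at -0.20. The replication-high share was 54.3% in 70 cells with both, whose interval ran from 41.9 to 66.3%.

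Outside the epithelium the summed levels of the 2 libraries lay closer together. Keratocytes and fibroblasts, the stromal cells of the cornea (670 and 1037 cells), summed to 339 and 371 CPM over the 34 genes, with replication-high shares of 0.993% and 1.88%. Of 10 genes at 10 CPM or more there, 0 were at least 2-fold higher (8.8% of all genes) and Ccnd1 was lower (37.5 and 16.9 CPM), with 7.28% of all genes. Their Ccnd2 stood at 251 and 234 CPM, against 179 and 864 CPM in epithelium. Summed levels were 557 and 619 CPM in mural cells, 501 and 751 CPM in vascular endothelium and 607 and 573 CPM in Schwann cells, classes of 55 to 72 wild-type cells with median depths of 2605 to 4534.5 UMIs. In Pax6 +/- lymphatic endothelium and myeloid cells summed to 658 and 680 CPM.

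Ung was higher in the library labelled Pax6 +/- in keratocytes and fibroblasts as well, though under 10 CPM in both libraries. In keratocytes and fibroblasts it had 4 UMIs (0.688 CPM) in wild type and 74 UMIs (5.70 CPM) in Pax6 +/-. It was not alone among genes under 10 CPM there. Cdt1 had 11 and 120 UMIs (4.89-fold, 2.64 to 10.1), Tcf19 2 and 29 UMIs and Uhrf1 7 and 40 UMIs. Others under 10 CPM had ratios below 1, the lowest that of Cdc45, with 14 and 15 UMIs (0.48-fold, 0.216 to 1.07). In Gpha2-high epithelial cells, where many other replication genes were higher too, Ung had 3 and 627 UMIs, a ratio of 26.0 with an interval of 8.86 to 126. Its level in Pax6 +/- was 24.7 CPM in Krt12-high and 24.4 CPM in Krt12-low cells, and 14.5 CPM in the lowest and 32.9 CPM in the highest quartile of Krt14. Its partner in uracil control, Dut, was 1.74-fold higher in keratocytes and fibroblasts (35.1 and 61.1 CPM).

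Summed replication genes were somewhat higher in Xist-only than in Y-only cells of the Pax6 +/- library. Xist-only and Y-only cells had replication-high shares of 33.4% and 30.6% and summed levels of 1756 and 1565 CPM. None of the 36 genes differed 2-fold between them, but few of all genes did (0.19% were higher and 0.792% lower). Of the 36 ratios of Y-only over Xist-only cells, 10 were above 1. Their median log2 was -0.12, where all genes stood at -0.08, and Pclaf had the lowest ratio, at 116 and 72.0 CPM. Against wild type, the Xist-only cells of Pax6 +/- had 30 of 36 genes at least 2-fold higher (15.3% of all genes) and the Y-only cells 22 of 33 (14.5%), and 0 were lower in either (5.53% and 7.5%). The mitotic list separated Xist-only and Y-only cells further, with 916 and 479 CPM in sum, and 5 of 19 mitotic genes at least 2-fold lower in Y-only cells (0.792% of all genes). Sex and animal cannot be told apart in these data.

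Among 68 further replication and G1/S genes, 56 reached 10 CPM in either library, and 22 of these were at least 2-fold higher in Pax6 +/- and 0 lower, at a median log2 ratio of 0.84, beside 14.9% and 6.35% of all genes at a median of 0.20. With TMM or DESeq2 scaling 14 of 54 were higher and 1 lower. The highest ratios were those of Timeless, a fork protection gene (3.60 and 17.8 CPM, 4.94-fold), Pole2, a subunit of the leading-strand polymerase (4.43 and 21.5 CPM, 4.85-fold), and Hells (15.3 and 69.1 CPM, 4.50-fold). Cdk4, a kinase that cyclin D activates, was among the 22, at 97.5 and 198 CPM (2.03-fold). The lowest ratios belonged to the repressive family members E2f6 (0.550) and E2f7 (0.704) and to the retinoblastoma gene Rb1 (0.693), and none of these was 2-fold lower.

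Inhibitors of cyclin-dependent kinases differed in both directions. The list held 7 of them and Trp53, and 7 of these 8 genes reached 10 CPM, with 1 at least 2-fold higher and 1 lower, beside 14.9% and 6.35% of all genes, and 4 lower with TMM or DESeq2 scaling. Cdkn1c was 4.74-fold higher in Pax6 +/- (4.91 and 23.3 CPM) and Cdkn2b was 0.421-fold (32.9 and 13.9 CPM). Cdkn1a, the p21 gene, stood at 811 and 411 CPM (0.507-fold), just short of the 2-fold limit, Cdkn2d at 65.3 and 33.4 CPM (0.511-fold) and Cdkn1b, the p27 gene, at 135 and 78.2 CPM (0.580-fold), and Cdkn2c at 24.5 and 26.1 CPM (1.06-fold). Trp53, an activator of Cdkn1a, stood at 78.6 and 155 CPM. Cdkn1a was lower in cells with more replication UMIs in both libraries, from 1000 CPM at 0 UMIs to 450 CPM at 10 or more in wild type and from 533 to 254 CPM in Pax6 +/-.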

How the data were processed

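Single-cell RNA sequencing with the 10x Genomics system gave 1 library per genotype. The deposited matrices hold counts, raw UMIs per gene and barcode with no normalization, made by the authors with Cell Ranger 8.0.0 per the file headers, on GRCm38 per the submitters' processing notes. The rule that selected the deposited barcodes is not given in the sources used here.

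The kept cells held 123671128 wild-type and 130682561 Pax6 +/- UMIs. UMIs were summed per class and divided by the class total, mitochondrial genes left out, to give CPM. Ratios are Pax6 +/- over wild type, with exact 95% conditional binomial intervals. Shares carry Clopper-Pearson intervals. No test was possible, so genes at 10 CPM or more in either library were counted by a 2-fold size rule. Cells under the keratin gate went to the class with the highest summed fixed markers at 20 or more per 10000, and classes under 50 cells are not described. That left 687 and 404 cells in no class. Doublets were not removed, and 41 and 55 epithelial cells had a higher marker sum of another class. Free RNA was not modelled. The 10x 3' or 5' chemistry is not given in the sources used here, so levels are not compared between genes.

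All 36 genes are named, grouped by role. From the other lists, the 3 highest and 3 lowest ratios among genes at least 2-fold apart were named, and for likeness the 10 genes with the highest Pearson r in each library among genes seen in at least 2% of thinned cells of both. Cdk4, Cdkn1a, Cdkn1b, Cdkn2c, Cdkn2d, E2f6, E2f7, Plk1, Rb1 and Trp53 were named after their values were seen. Genes and lists were chosen with earlier results of these data known. Gene positions come from GENCODE M21 on GRCm38, promoter windows from RefSeq on GRCm38.p6. The summing was tested on simulated data. Tools were Python 3.11.15, numpy 2.4.6, scipy 1.17.1, pandas 2.3.3, matplotlib 3.10.9 and R 4.3.3, with edgeR 4.0.16 and DESeq2 1.42.0 used for scaling factors alone. Alternatives changed the scaling, the CPM minimum, the fold, the keratin gate, the thinning depth, the UMI limit and the cells included.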

Additional observations from a re-analysis of the deposited data

How the results depend on the processing

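No paired analysis was possible because each genotype has 1 library. Under each of the 19 settings tried, 0 genes were at least 2-fold lower. The main values are 28 genes at least 2-fold higher, a median log2 ratio of 1.29 and replication-high shares of 9.30% and 32.0%. With edgeR's TMM and DESeq2's size factors 15 genes were higher at each, at medians of 0.96 and 0.94. A keratin gate of 60 per 10000 gave a median of 1.73 and a wild-type share of 7.02%. Against Xist-only Pax6 +/- cells the median was 1.55, and the Pax6 +/- shares were 33.4% in Xist-only and 30.6% in Y-only cells. Within Krt14 ranges of 0 to 5, 5 to 20, 20 to 40, and 40 or more per 10000, added after seeing the data, 5, 15, 13 and 22 genes were higher, with medians of 0.47, 0.79, 0.73 and 1.29. The shares there were 6.13%, 12.5%, 17.5% and 11.8% in wild type and 14.4%, 31.2%, 35.0% and 35.9% in Pax6 +/-. Shares were 40.1% and 69.4% without thinning, 18.2% and 46.7% at 3 or more UMIs, 5.71% and 21.1% at 8 or more, 6.14% and 23.3% when thinned to 2000 UMIs, and 41.0% and 74.5% with all 36 genes in the sum. The cause of these moves was not tested. Leaving out the 33 shared barcodes gave 28 genes, and leaving out the 5% of barcodes with most UMIs, where doublets would lie, gave 24. Adding cells of no class gave 26. The direction changed in 5 single ratios: Ccne1 with TMM (0.963), with DESeq2 scaling (0.950) and at Krt14 of 0 to 5 (0.718), Prim1 at 0 to 5 (0.971) and Rrm1 at 20 to 40 (0.935).

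Mouse, sex, dissection, library and genotype cannot be told apart with 1 library each. Genes under 10 CPM rest on few UMIs, and Ung in wild type on 177.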
